A study of Mus musculus with 2 samples.

Results

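The genes of the proteasome, the barrel-shaped protease that degrades proteins tagged with ubiquitin, were examined in 2 tumours that grew from the mouse cell line RMS3. The members were chosen by name alone: every gene on the array whose name starts with Psma, Psmb, Psmc, Psmd, Psme or Psmf followed by a digit. The rule took 44 of 27962 gene names and 67 of 43379 spots that were not controls. One of them, Psmc3ip, encodes a partner of Psmc3 in meiotic recombination and no subunit, so 43 names stand for subunits, assembly chaperones, activators or the inhibitor. The rule itself uses names and no measured value, although the gene family was picked with earlier results of these data known.

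Both tumours belong to 1 group and were treated alike. Cells of RMS3, called a PRMS line in the labels, were injected under the skin of male C57BL/6J mice, and each sample is 1 tumour taken 2 weeks later. The age of the hosts is not given in the sources used here, all tumours descend from 1 cell line, and the RNA of a whole tumour holds that of host cells too. The series has no untreated or cultured control, so the comparison is tumour 2 against tumour 1, with 1 array each, no replicate check and no p-value. The labels do not say that the tumours came from separate cultures. One label speaks of metastatic tumours at harvest, while the others describe growth at the injection site.

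As background, the 20S core of the proteasome is a stack of rings, with alpha subunits on the outside and beta subunits on the inside, and Psmb5, Psmb6 and Psmb7 carry the constitutive catalytic sites. Interferon gamma is known to induce Psmb8, Psmb9 and Psmb10, which replace these in newly built cores and change the peptides made for MHC class I molecules, and Psme1 and Psme2, which together form an activator of the core. Cells of the immune system hold such immunoproteasomes without induction. The 19S regulator, built of ATPases (Psmc genes) and non-ATPases (Psmd genes), caps the core, binds ubiquitin chains and unfolds the substrate.

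The promoters of 2 immune and 2 constitutive catalytic genes are shown because these pairs carry the comparison below. They come from RefSeq on GRCm38.p6, run 5′ to 3′ on the strand of the gene and end 1 base before its annotated start. Capitals mark matches, on either strand, to the letters AANNGAAA (core of interferon regulatory factor sites), TTCNNNGAA (interferon gamma activated site), TGACNNNGC (core of the antioxidant response element, a site of the Nfe2l1 and Nfe2l2 family) and CCAAT (box bound by NF-Y).
Psmb8, chr17:34197945-34198194, plus strand: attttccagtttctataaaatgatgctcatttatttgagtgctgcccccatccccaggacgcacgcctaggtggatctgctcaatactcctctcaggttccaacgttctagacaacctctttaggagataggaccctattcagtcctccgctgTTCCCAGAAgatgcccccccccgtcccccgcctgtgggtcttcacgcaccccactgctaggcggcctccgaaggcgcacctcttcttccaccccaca
Psmb9, chr17:34187331-34187555, minus strand: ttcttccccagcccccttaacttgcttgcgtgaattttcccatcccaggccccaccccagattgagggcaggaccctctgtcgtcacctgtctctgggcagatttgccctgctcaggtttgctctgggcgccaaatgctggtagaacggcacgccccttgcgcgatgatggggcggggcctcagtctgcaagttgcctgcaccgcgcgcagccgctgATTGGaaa
Psmb5, chr14:54617996-54618245, minus strand: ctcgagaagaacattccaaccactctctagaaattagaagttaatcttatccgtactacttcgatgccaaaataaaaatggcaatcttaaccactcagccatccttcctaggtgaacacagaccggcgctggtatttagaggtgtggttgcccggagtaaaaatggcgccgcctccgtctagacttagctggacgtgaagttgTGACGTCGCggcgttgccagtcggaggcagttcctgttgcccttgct
Psmb6, chr11:70525107-70525356, plus strand: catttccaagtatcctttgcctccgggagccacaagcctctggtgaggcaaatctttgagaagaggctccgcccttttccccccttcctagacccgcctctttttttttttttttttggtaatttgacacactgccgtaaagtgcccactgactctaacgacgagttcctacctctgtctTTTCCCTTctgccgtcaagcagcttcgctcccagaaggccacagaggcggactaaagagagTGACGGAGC

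The window of Psmb9 is printed over 225 bases, not 250, because the gene of the peptide transporter subunit Tap1 starts there on the facing side. The Psmb8 window held 1 match to the interferon gamma activated site, 97 bases before the start. The Psmb9 window held a CCAAT box 8 bases before the start. Both constitutive windows held the core of the antioxidant response element, 47 bases before the start of Psmb5 and 9 before that of Psmb6, and the Psmb6 window held a match to the interferon regulatory factor core 70 bases before the start. No match in a window says only that these letters are not in it.

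RefSeq windows of 250 bases were found for 37 of the 44 names, with Psmb9 counted here over its full 250 bases. Over those 37 genes the antioxidant core occurred in 5 (13.5%, against 10.2% of 32851 windows of all genes), in Psmb5, Psmb6, Psmc6, Psmd12 and Psmd9. The interferon gamma activated site occurred in 1 (2.70% against 7.02%), the interferon regulatory factor core in 9 (24.3% against 21.3%) and the CCAAT box in 14 (37.8% against 33.9%). These shares are descriptions of letters and say nothing of which factor bound in the tumours.

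Levels are log2 of the scanner's processed signal relative to the array's 75th percentile, so they compare a probe between tumours and never one probe with another. Array 1 carried 1071 spots flagged as non-uniform, array 2 carried 43. Of the 67 spots of members, 4 were flagged and 14 lay within 2 rows and columns of a flag, and these 26.9% were left out, against 31.3% of all spots. The 49 spots kept are the ones a statement below rests on unless it says otherwise. Repeat spots of a probe within an array varied with an SD of 0.23 (log2) on array 1 and 0.11 on array 2, which gives 0.24 for a difference between the arrays. This is a technical error over 178 probes printed repeatedly and leaves out the spread between tumours.

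**Figure D1:**
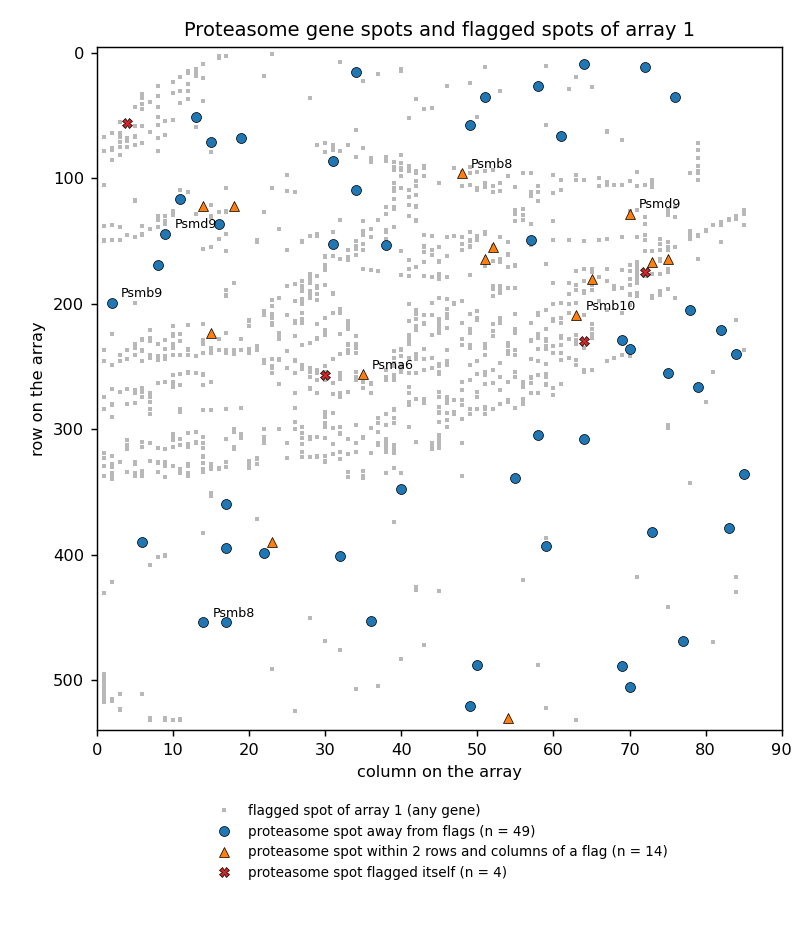
Position of the 67 proteasome gene spots (column against row of the array) over the flagged spots of array 1, in grey. Circles are the 49 spots away from flags, triangles the 14 spots within 2 rows and columns of a flag and crosses the 4 flagged spots. The only spots of Psmb10 and Psma6 lie among the flags.

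The members' values differed with the distance from flags. The 47 member spots away from flags that were above background on both arrays had a median difference (tumour 2 minus tumour 1, log2) of -0.01, and 1 was at least 2-fold apart. The 14 spots near a flag had a median of 0.59 and reached 6.25, with 6 at least 2-fold apart. The 4 flagged spots had a median of 1.22, with 2 at least 2-fold apart. Member spots near flags thus stood higher in tumour 2, and what part the flagged area had in their values was not tested. The same shares over all spots of the array were not computed. These counts therefore show nothing particular to proteasome genes.

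Most genes of the complex were above background. Of the 44 genes, 37 were measured in both tumours, 6 had no spot away from flags (Psma6, Psmb1, Psmb10, Psmc3, Psmd5 and Psmd13) and 1, Psma8, the alpha subunit known from the testis, was below the detection call on both arrays. Of all genes with a spot away from flags, 61.4% were above background on both arrays, so 37 of 38 is a higher share than the array as a whole. Psmb11, the beta subunit of the thymus, stands on the array under the older name 5830406J20Rik, outside the rule, and was below that call too.

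As a set, the proteasome genes lay at the same place in both tumours. The median difference of the 37 genes was -0.001, that of all 13147 genes -0.01. In tumour 2, 18 were higher and 19 lower, and over all genes 51.5% were lower in tumour 2 (higher in tumour 1). With the array's 75th percentile taken over all spots, flagged area included, every difference was lower by the same amount, the median of all genes lay at -0.24, and the members divided into 8 higher and 29 lower. Without scaling that median was -0.15, with 9 members higher and 28 lower. Quantile scaling gave 14 higher, 22 lower and 1 equal. Against the median of all genes, the members divided into 20 above and 17 below under the main scaling. The percentile over all spots and no scaling shift all genes alike and cannot change that division. The members divided into 16 and 21 under quantile and loess scaling. They divided into 22 and 15 with a local trend subtracted, and into 29 and 9 without the detection filter, where the median of all genes lay at -0.16.

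The spread among members was narrower than over all genes. Differences of less than 0.5 were found in 34 of 37 members, against 74.2% of all genes. The SD over members was 0.33, while the SD over all genes was 0.55. Over the 36 genes other than Psmd9 it was 0.24, a value with no counterpart in the other sets, which keep their extremes. Genes of like signal were set beside them. Among the 1840 genes in the middle 50% of the members' own range of levels, the SD was 0.39 and 89.9% lay less than 0.5 apart. The share of all members, dimmer ones such as Psmb8, Psmb9 and Psmd9 included, was close to that, 91.9%. The middle 50% of differences spanned 0.23 over members, 0.37 over these 1840 genes and 0.54 over all genes. Gaps of 2-fold or more were few in each set. Of the 37 members, 1 had such a gap towards tumour 2 and 0 towards tumour 1. Over all genes the shares were 2.6% and 3.81%. Among the 1840 genes of like signal, 20 had such a gap towards tumour 2 and 7 towards tumour 1. A count of 1 member is too small to show a narrower spread.

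**Figure D2:**
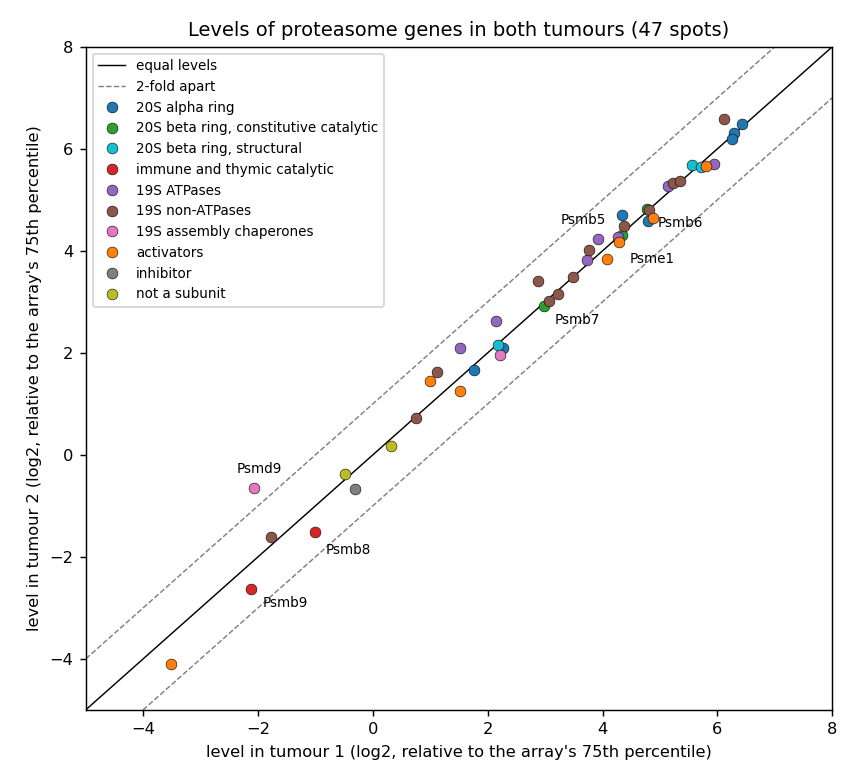
Level in tumour 1 against level in tumour 2 (both log2, relative to the array's 75th percentile) for the 47 proteasome gene spots above background on both arrays and away from flags, coloured by role. Dashed lines mark a 2-fold gap. Psmd9 alone lies beyond a dashed line, and Psmb8 and Psmb9 lie below the line of equal levels.

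The alpha ring, which forms the gate of the core, differed little. Psma2 stood at 6.29 in tumour 1 and 6.31 in tumour 2, Psma5 at 6.26 and 6.19, and Psma7 at 6.44 and 6.48. Psma1 was 0.21 lower in tumour 2 (4.80 and 4.59), and both probes of Psma4 were lower (-0.16 and -0.11). Psma3 was the highest of the ring in tumour 2 by difference, 0.35, a gap larger than the repeat-spot SD of 0.24. Of the 6 alpha genes measured, 3 were higher and 3 lower in tumour 2, with a median of -0.02.

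The constitutive catalytic genes were nearly equal in both tumours. Psmb5, the chymotrypsin-like subunit, stood at 4.33 in tumour 1 and 4.32 in tumour 2. Psmb6, the caspase-like subunit, stood at 4.78 and 4.83. Psmb7, the trypsin-like subunit, stood at 2.98 and 2.92. The differences of these genes (-0.02, 0.05 and -0.06) are all smaller than the repeat-spot SD. The structural beta genes behaved in the same way, with Psmb2 at -0.03, Psmb3 at 0.12 and Psmb4 at -0.07.

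The immune catalytic genes were lower in tumour 2. Psmb8, which takes the place of Psmb5, stood at -1.02 in tumour 1 and -1.52 in tumour 2. Psmb9, which takes the place of Psmb6, stood at -2.12 and -2.62. Both genes differed by -0.51, or 1.42-fold, which is -2.15 in units of the repeat-spot SD. Of all genes, 28.2% differed by more than 2 such SDs in either direction. Gaps of this size were common over the array: Psmb8 and Psmb9 lay at percentiles 14.3 and 14.2 of the differences of all genes, where 0 is the gene lowest in tumour 2. Their raw signals were modest, 489 and 312 for Psmb8 and 228 and 146 for Psmb9, well above background on both arrays.

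Psmb8 has another probe, and it went the other way. That spot lies within 2 rows and columns of a flag and stood at -2.51 in tumour 1 and -1.78 in tumour 2, which is 0.73 higher. The 9 other unflagged spots around it had a median difference of 3.16, whereas the 17 around the probe used had a median of -0.19. Around the Psmb9 spot the median of 13 spots was -0.10. The lower level of Psmb8 therefore rests on 1 spot, and with all unflagged spots its difference shrank to -0.08.

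The other members of the immune group gave less. Psmb10, which takes the place of Psmb7, has 1 probe, near a flag, with -2.69 in tumour 1 and 2.62 in tumour 2. That gap of 5.31 is far larger than the median of the 9 unflagged spots around it (0.70), and no spot away from flags was there to check it. Psme1 stood at 4.28 and 4.18, and its difference of -0.10 was smaller than the repeat-spot SD. No spot carries the name Psme2. Its relative Psme2b-ps, now listed in RefSeq as Psme2b, has 2 probes that both lay -0.24 apart, and whether they also bind Psme2 transcripts was not tested.

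Set against each other, the immune genes differed from the constitutive ones by a log2 gap of -0.49 (medians -0.51 over Psmb8, Psmb9 and Psme1, and -0.02 over Psmb5, Psmb6 and Psmb7). Each of the 3 immune genes lay below each of the 3 constitutive genes by its difference, although Psme1 only by a margin under the spot error. That order did not hold for Psme1 in every setting: with a local trend subtracted its difference was 0.087, above all 3 constitutive genes, and with normexp it was -0.018, above the lowest of them. Psmb8 minus Psmb5 gave -0.49, a 1.40-fold shift of the ratio, and Psmb9 minus Psmb6 gave -0.56, a 1.47-fold shift. The contrast was below 0 in 11 of 12 alternative settings, from -0.56 up. Median scaling, no scaling and the percentile over all spots shift all genes alike, so they could only repeat the main value of -0.49. That value was also unchanged without the detection filter and with the brightest probe. With all unflagged spots the contrast was 0.023, where Psmb8 included its probe near the flag and Psmb10 entered at 5.12. With only the brighter 50% of probes it was -0.085, since Psmb8 and Psmb9 dropped out and Psme1 alone remained. The 2 sides also differ in signal: mean levels were -1.27 for Psmb8 and -2.37 for Psmb9, but 4.32, 4.80 and 2.95 for Psmb5, Psmb6 and Psmb7. Beyond 2 repeat-spot SDs lay 28.2% of all genes, and 12.1% of the 1840 genes in the middle of the members' range of levels. Genes as dim as Psmb8 and Psmb9 were not set beside the contrast, and the part of signal level in it was not tested. With 1 tumour on each side no test of the contrast exists.

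**Figure D3:**
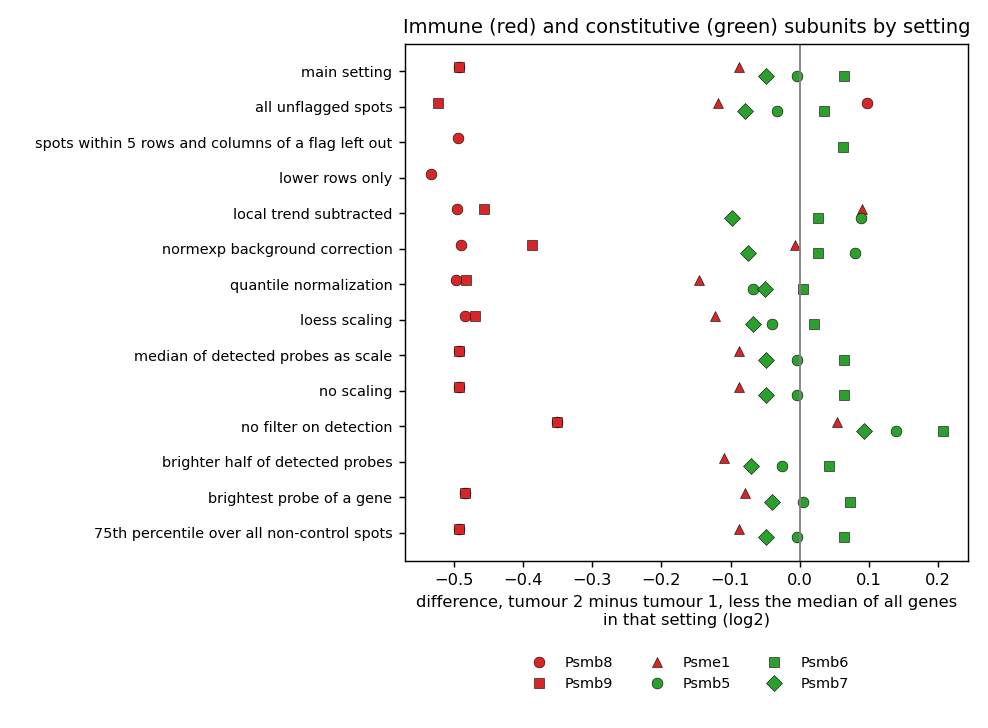
Difference between the tumours (tumour 2 minus tumour 1, log2, less the median of all genes in that setting) of Psmb8, Psmb9 and Psme1 in red and of Psmb5, Psmb6 and Psmb7 in green, one row for each way of processing. Psmb9 lies between -0.52 and -0.35 in the 10 alternative settings that hold it, and Psmb8 crosses 0 in 1 setting, with all unflagged spots. Psmb10, measured only in that setting (5.12 before the median is taken off), lies outside the axis and is not drawn.

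The 19S regulator leaned towards tumour 2 by small amounts. Of its 5 measured ATPases, 4 were higher in tumour 2 (median 0.13), with Psmc1 counted at 0.005. Over all genes 6382 of 13147 were higher in tumour 2, and so were 1005 of the 1840 genes of like signal. Summed on the linear scale, where bright probes weigh most, the ATPases stood at 130 in tumour 1 and 129 in tumour 2. The sums of the non-ATPases were 189 and 223. Psmc4 stood at 3.03 in tumour 1 and 3.43 in tumour 2, with both probes higher (0.30 and 0.49). Psmc5 stood at 2.63 and 2.96, but its probes gave 0.09 and 0.57. Psmc6 was lower in tumour 2, at 5.94 and 5.71, and Psmc1 was level at 4.27 and 4.28. Psmc3, near a flag, gave 0.45.

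Of the 10 measured non-ATPases, 7 were higher in tumour 2 (median 0.12), to be read beside the same shares over all genes and genes of like signal. Psmd3, a subunit of the lid, stood at 6.12 and 6.58 and so differed by 0.45. Psmd12 differed by 0.26 and Psmd7 by 0.25, but each has probes that disagree: 0.51 and 0.003 for Psmd12, 0.54 and -0.03 for Psmd7. A further probe of Psmd12, near a flag, gave -0.41, and the gene's difference was -0.19 with all unflagged spots and 0.003 with its brightest probe. A flagged probe of Psmd7 gave 3.72, and its difference was 0.54 with the brightest probe. Psmd14, the deubiquitinase that strips ubiquitin from the substrate, differed by 0.12. The ubiquitin receptors Psmd4 and Psmd2 differed by 0.16 and 0.10. The Psmd4 value rests on 1 dim probe, with raw signals of 288 in tumour 1 and 292 in tumour 2. The Psmd4 probe left out near a flag had 17500 and 21436. The probes of Psmd4 and Psmd2 near flags gave differences of 0.43 and 1.02, and with all unflagged spots Psmd2 differed by 0.37. Psmd1, Psmd6 and Psmd8 lay within 0.07 of equal. Against the median of all genes, the median of the ATPases and that of the non-ATPases were above 0 in all 13 alternative settings. Median scaling, no scaling and the percentile over all spots could only repeat the main values there. In the lower rows 1 ATPase and 3 non-ATPases were left. Genes of like signal were not set beside these medians in the alternative settings. Under the main scaling the median of the 1840 such genes itself lay 0.04 above that of all genes. The repeat-spot SD was exceeded by 3 of the 10 non-ATPases and 2 of the 5 ATPases, shares below the 55.4% of all genes and near or below the 39.3% of genes of like signal.

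The gene furthest apart was Psmd9, a chaperone that helps assemble the base of the 19S regulator and is no part of the finished complex. Its level was -2.07 in tumour 1 and -0.65 in tumour 2. The difference of 1.42, or 2.67-fold, lay at percentile 99.0 of all genes. Its other probe, near a flag, gave -0.76 and 0.97 and so differed by 1.72 in the same direction. The unflagged spots around each of these probes had median differences of 0.07 and -0.04. With spots within 5 rows and columns of a flag left out, Psmd9 has no value and no member was 2-fold apart. The other base chaperones did not follow: Psmd10 was lower in tumour 2 (2.21 and 1.95), and Psmd5, near a flag, stood at 3.06 and 3.09.

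The activators and the inhibitor went different ways. Psme3, which forms the nuclear activator ring, stood at 1.00 in tumour 1 and 1.45 in tumour 2. Psme4, the large single-chain activator, was lower in tumour 2 at each of its 3 probes away from flags (-0.58, -0.27 and -0.14), and a probe near a flag gave 3.80. Psmf1, an inhibitor of the core, stood at -0.30 and -0.67, while its 2 probes near flags gave 0.43 and 1.69. With all unflagged spots Psmf1 was therefore 0.24 higher in tumour 2. The probe of Psma6 near a flag gave the largest gap of any member spot, 6.25, with -1.41 in tumour 1 and 4.84 in tumour 2.

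Different probes of a gene gave a further measure of error. Away from flags 9 genes had more than 1 probe, and the gap between their probes' differences had a median of 0.26 and reached 0.57, beside a median of 0.36 over 3351 such genes of the array. In 3 of the 9 the probes differed in sign (Psmd7, Psmd14 and Psmc3ip).

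**Figure D4:**
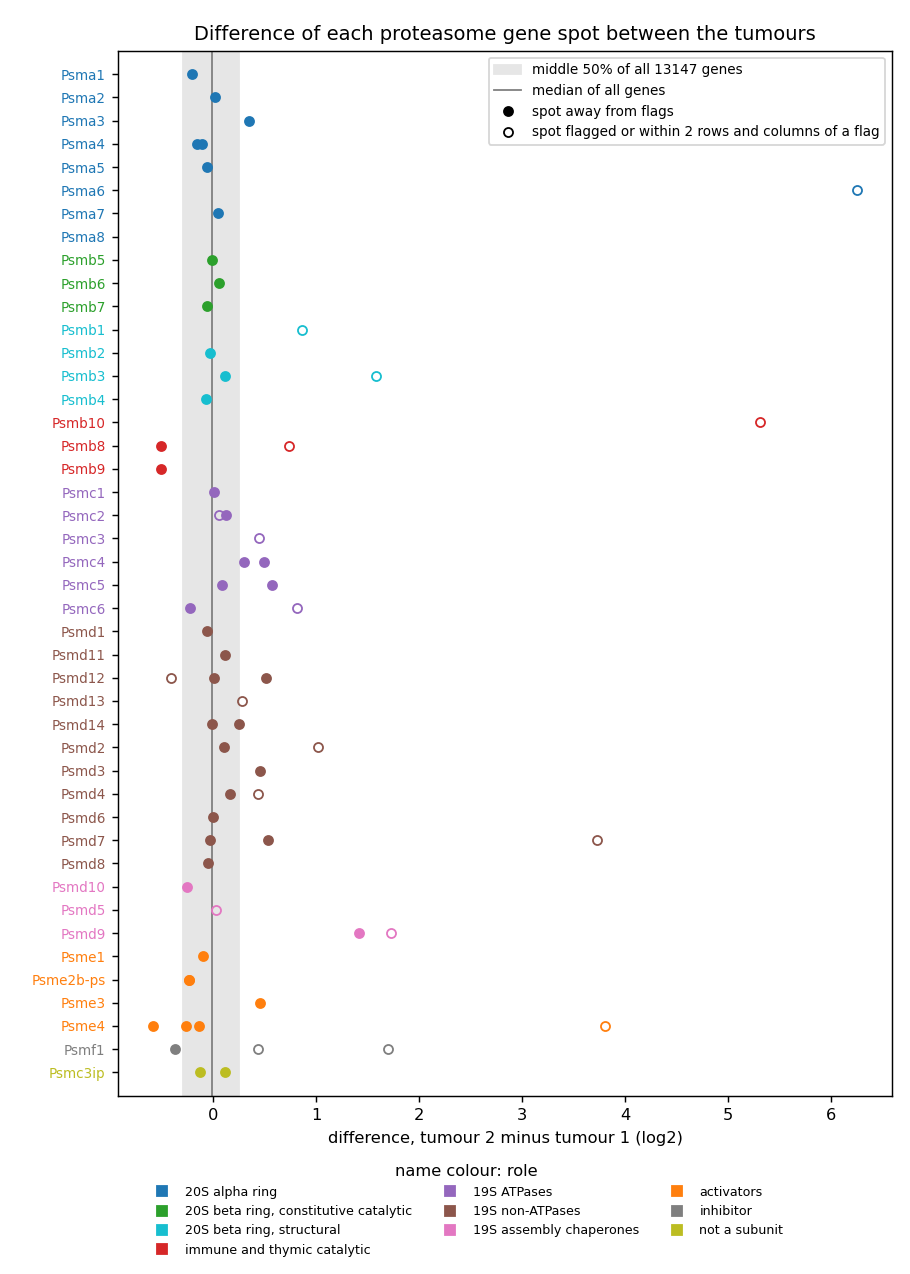
Difference of each proteasome gene spot above background on both arrays (tumour 2 minus tumour 1, log2), one line for each gene, grouped and coloured by role. Filled circles are spots away from flags, open circles flagged spots or spots near a flag, the grey band is the middle 50% of all 13147 genes. Filled circles cluster at 0 apart from Psmd9 at 1.42, and the open circles reach 6.25 for Psma6.

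Genes that build, feed or control the proteasome were examined beside it. Pomp, the factor that matures the core, stood at 6.25 in tumour 1 and 6.28 in tumour 2, and the core chaperones Psmg2 and Psmg3 differed by 0.24 and -0.02. Of the 5 such assembly genes measured, 3 were higher in tumour 2 (median 0.03). Nfe2l1, the transcription factor that raises proteasome genes when the protease is blocked, stood at 4.67 in both tumours, its relative Nfe2l2 differed by -0.02, its activating protease Ddi2 by -0.25 and the deglycosylating enzyme Ngly1 by 0.04. Of these 5 genes of the Nfe2l1 axis, 3 were higher in tumour 2. Adrm1, a ubiquitin receptor of the 19S regulator, stood at -0.48 in tumour 1 and 0.40 in tumour 2 (0.88), while the small 19S subunit Sem1 (-0.04) and the proteasome-bound deubiquitinase Usp14 (-0.01) were level. Among 7 measured receptors, shuttles and deubiquitinases, 4 were higher in tumour 2 (median 0.12).

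The muscle ubiquitin ligases Trim63 and Fbxo32, known from muscle wasting, differed by -0.26 and -0.22. None of these genes was 2-fold apart.

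The interferon gamma response, which is known to induce the immune subunits, was also lower in tumour 2 in most of its genes. Of 12 listed genes 8 were measured, 7 of them lower in tumour 2 (6 against the median of all genes), with a median of -0.32. Over all genes 51.5% were lower in tumour 2. The transcription factor Irf1 stood at 2.74 in tumour 1 and 1.97 in tumour 2 (-0.77), and the GTPase Gbp2 at -1.90 and -2.67 (-0.77). The chemokine Cxcl10 differed by -0.24, Cxcl9 was well above background on array 1 only, and Ifng itself was above it on neither array. The median of the list stayed below that of all genes in all 13 alternative settings, by 0.01 with the brighter 50% of probes, where 3 genes were left. Median scaling, no scaling and the percentile over all spots could only repeat the main value there. None of the 8 genes was 2-fold apart.

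The genes that load peptides onto MHC class I molecules did not lean one way. Of 7 measured, 3 were higher and 4 lower in tumour 2, with a median of -0.04. The light chain B2m differed by -0.25 and the loading chaperone Tapbp by -0.34, and the class I gene H2-D1 differed by 0.56. H2-D1 has close copies in the same family that a probe can also bind. The transporter subunit Tap2 differed by 0.03. Tap1, whose start faces that of Psmb9, was below the detection call on both.

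Markers of the cells that hold immunoproteasomes were measured in the same arrays. In bulk tumours fewer cells of a type and less RNA per cell cannot be told apart. All 7 haematopoietic markers were measured, 5 lower in tumour 2, with a median of -0.17 and a summed level of 14.7 in tumour 1 and 12.5 in tumour 2 (linear scale, in units of the array's 75th percentile). Such a sum is weighted towards bright probes. The median lay above that of all genes in 2 of 13 alternative settings, by up to 0.079. The pan-leukocyte gene Ptprc differed by -0.22 and Cd53 by -0.17, Laptm5 and Coro1a by 0.17 each. Of 8 macrophage markers 5 were measured (summed level 7.29 and 6.21, median -0.06, 2 higher and 3 lower in tumour 2): Adgre1 differed by -0.64, Cd68 by 0.22, C1qa by -0.06 and C1qb by 0.06. Of 9 markers of T and cytotoxic cells 3 were measured, near the floor (summed level 0.085 and 0.074). Cd3e differed by 0.24, and Cd3g, Cd8a and Cd4 were above background on neither array. The part of these cells in the lower Psmb8 and Psmb9 of tumour 2 was not tested.

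**Figure D5:**
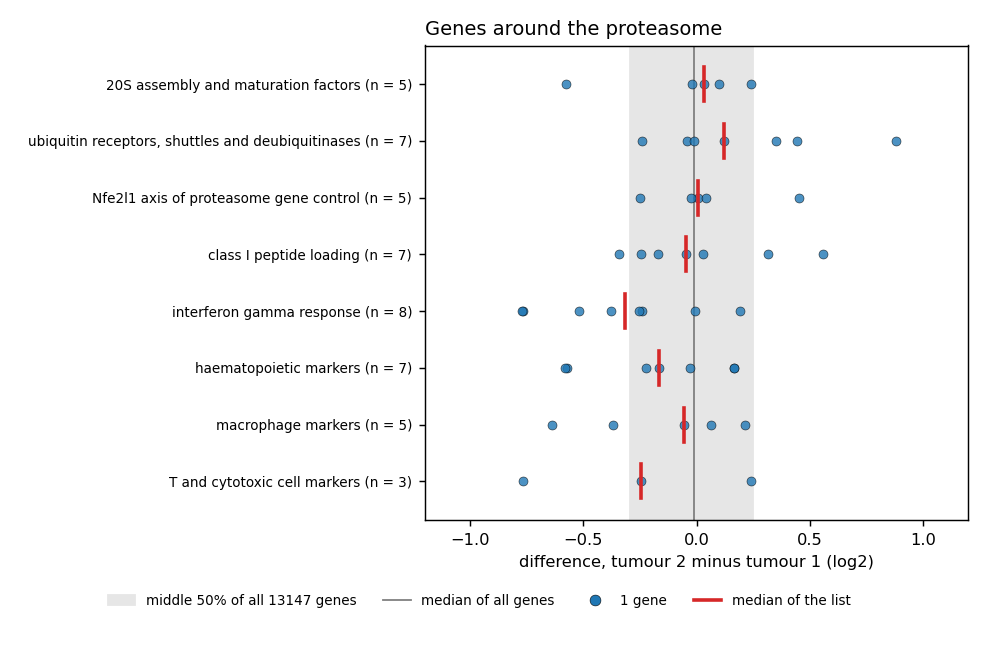
Difference of each measured gene (tumour 2 minus tumour 1, log2; blue points) in 8 lists of genes around the proteasome, with the median of each list in red and the middle 50% of all 13147 genes in grey. The interferon gamma response has the lowest median, -0.32, and 7 of its 8 genes lie below 0.

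The muscle lineage was checked with 8 markers, of which 4 were measured. Myog, a myogenic transcription factor, stood at -2.23 in tumour 1 and -2.10 in tumour 2, and Myod1 at -5.23 and -5.58, close to the lowest levels that counted as above background (-5.77 and -6.18). Des and Myh3, of the muscle cytoskeleton and the embryonic myosin, were 1.24 and 1.07 higher in tumour 2. Myf5 and Pax7, of muscle progenitors, were above background on neither array. Des, Myh3 and Psmd9 were higher in the same tumour, and the part of muscle transcripts in the result for Psmd9 was not tested.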

How the data were processed

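Total RNA of 2 tumours was hybridised to single-colour Agilent mouse arrays, 1 for each tumour. The deposited intensity values are processed signals that Agilent's Feature Extraction software wrote. Its release is 9.1.3.1 per the file headers, whereas the submitters' processing notes give 8. The authors' value table was equal to the processed signal intensity at all 45018 spots (medians 63.3 and 67.5). Log2 of the processed signal was taken relative to the array's 75th percentile (988 and 896) over the spots kept. The written plan named non-control spots for it and can be read as all of them, so both are given. Non-uniform and population-outlier spots, spots within 2 rows and columns of one on either array, and spots next to a local background above 100 were left out. Detection of a probe required 50% or more of its spots to be well above background on both arrays, and saturated probes were left out. A gene's difference is the median over its detected probes.

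Of the spots, 62.3% and 66.1% were well above background, which with 2 arrays limits the precision. Gene names are those of the file of tumour 2, and 43 of the 44 member names are RefSeq symbols. All members may be named, and from each other list its first 4 genes and those at least 2-fold apart, of which some are not reported here. The members, lists and rules were chosen with earlier results of these data known. The procedure was tested on simulated data. Alternatives were all unflagged spots, a wider distance from flags (5 rows and columns), the lower rows, a local trend, normexp (offset 50), quantile, loess (span 0.3), median or no scaling, no filter, the brighter 50% of probes and the brightest probe. The percentile over all spots was added after seeing the data. R 4.3.3, limma 3.58.1 and Python 3.11.15 were used. No genome build of the array is given in the sources used here.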

Additional observations from a re-analysis of the deposited data

How the results depend on the processing

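Of 13 alternatives, 12 were set before and the percentile over all spots after seeing the data. No result changed sign from a 2-fold call. The number of proteasome genes detected was 37 with either tumour left out, and 6 in the lower rows alone. There the median difference was 0.29, with 4 genes higher in tumour 2 and 0 at least 2-fold apart. No constitutive catalytic gene was left in those rows, so the contrast has no value there. The number higher in tumour 2 was 9 without scaling and 8 with the percentile over all spots. The number at least 2-fold apart was 3 with all unflagged spots, 2 without the detection filter, where Psma8 counts, 0 with spots within 5 rows and columns of a flag left out, and 0 with the brighter 50% of probes. Psmd9 had no value under the last 2 settings. With all unflagged spots the median of the immune subunits was -0.19 and the contrast 0.023. With the brighter 50% they were -0.10 and -0.085, from Psme1 alone. With the wider distance the contrast of -0.56 came from Psmb8 and Psmb6 alone. All other alternatives left these values within the repeat-spot SD and the counts within 1.5 times. No paired analysis was possible because both tumours are in 1 group.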
